A study of Cannabis sativa with 6 samples.

Results

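Messenger RNA of 4 cannabinoid pathway genes was followed in flowers of feral hemp (Cannabis sativa, whose plants are either male or female), over 6 libraries. The genes were taken by identifier, 4 of 29777 gene rows: LOC115723438 (OAC), LOC115697762 (CBDAS), LOC115699293 (a polyketide synthase locus listed under the names PKSF3, PKSG2 and PKSG4, here the PKSG locus) and LOC115696884 (listed under CBDAS2, CBDAS3 and THCA5, here the CBDAS2 locus). Names come from the NCBI RefSeq gene table of the Pink pepper assembly, which puts OAC on chromosome 9, the PKSG locus on chromosome 8, and CBDAS and the CBDAS2 locus on chromosome 7. The libraries were 3 from male and 3 from female flowers, 1 of each sex from the Nebraska locations Knox, Madison and Merick, and each is named by location and sex. The labels list no treatment; plants of either sex were grown in pots under 16 hours of light for 10 weeks, then under 11 hours to bring on flowering. The labels give neither plant age at harvest nor flower stage, nor whether a library holds 1 plant or a pool. The p-values therefore measure only the spread between these libraries, in which plant, location and technical differences cannot be told apart.

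Cannabinoids are made in the glandular trichomes, secretory hairs that are dense on the bracts of female flowers. A polyketide synthase joins a short fatty acyl starter with malonyl units, and OAC, olivetolic acid cyclase, folds the product into olivetolic acid. A prenyltransferase then adds a terpene chain to give cannabigerolic acid, and CBDAS, cannabidiolic acid synthase, closes that chain into cannabidiolic acid. The gene table records neither the polyketide that the PKSG locus makes nor the activity of the CBDAS2 locus.

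Gene counts per library were 40334171 to 46045338 in males and 26945432 to 38672535 in females. Levels are CPM, the depth-scaled count, on library sizes scaled by the trimmed mean of M-values (TMM), which corrects for composition. Across the 19276 genes that passed edgeR's filter on low counts, the Merick male stood apart from the other males: its log2 levels correlated at 0.81 and 0.84 with the Knox and Madison males and at 0.81 to 0.82 with the females, whereas the Knox and Madison males correlated at 0.95. Calls that change without it are given below. In bulk flowers, fewer trichomes and less RNA per trichome cannot be told apart, and no trichome or flower organ marker carries a name in the gene table, so the tissue label was not checked against markers.

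OAC, CBDAS and the PKSG locus had lower mean levels in male than in female flowers, and only OAC passed the test over 6 libraries. These 3 members passed the filter on low counts and the CBDAS2 locus did not. By edgeR's quasi-likelihood test with Benjamini-Hochberg adjustment, 4.75% of the 19276 tested genes were lower and 12.6% higher in males. Against that background OAC was 1 call among the 3 tested members.

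The PKSG locus, named as a polyketide synthase, stood at 2.19, 9.12 and 50.5 CPM in the Knox, Madison and Merick males, against 44.1, 54.0 and 96.0 CPM in the females of the same locations. The Merick male lay above the Knox female, so the sexes overlapped. The male mean was 20.6 ± 26.1 CPM and the female mean 64.7 ± 27.5 CPM (SD, n = 3 each). The log2 fold change, male minus female, was -1.65 (SE 1.04) and missed the threshold (adjusted p = 0.29 by edgeR). Of all tested genes, 9.96% had a lower fold change.

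OAC, at the cyclisation step, stood at 1.60, 4.53 and 21.6 CPM in the Knox, Madison and Merick males, against 307, 47.0 and 436 CPM in the females of the same locations. The groups did not overlap: the lowest female, from Madison, was 2.18-fold above the highest male, from Merick. OAC fell in males, with a log2 fold change of -4.83 (SE 1.28, edgeR's adjusted p = 0.048), which ranked 68 among the 19276 tested genes from the lowest fold change up. The call was lost without any 1 library other than the Merick male (edgeR's adjusted p 0.084 to 0.16) and with location as a block (adjusted p = 0.053), while DESeq2, which called 12.1% of its genes lower, gave an adjusted p of 4.4e-05.

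CBDAS, at the last step, had the widest fold range of the members over the 6 libraries, though not among females alone. It stood at 0.52, 2.94 and 69.5 CPM in the Knox, Madison and Merick males, against 214, 75.7 and 278 CPM in the females of the same locations. Every male lay below every female, but the Merick male (95% Poisson interval 67.2 to 71.8 CPM) and the Madison female (73.0 to 78.6 CPM) were 1.09-fold apart. This order held with each of 4 scalings, and such intervals cover counting error only. The log2 fold change was -2.96 (SE 1.62, adjusted p = 0.23 by edgeR and 0.076 by DESeq2). That value compares mean counts, which the Merick male dominates in males, whereas the mean difference of log2(CPM + 0.5) over libraries was -4.73, next to -4.91 for OAC. CBDAS belongs to a family of similar copies. Reads without a unique alignment, 5.14% to 5.74% of those listed per library, were assigned to no gene; how many came from CBDAS was not tested, so its counts are uncertain.

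**Figure D1:**
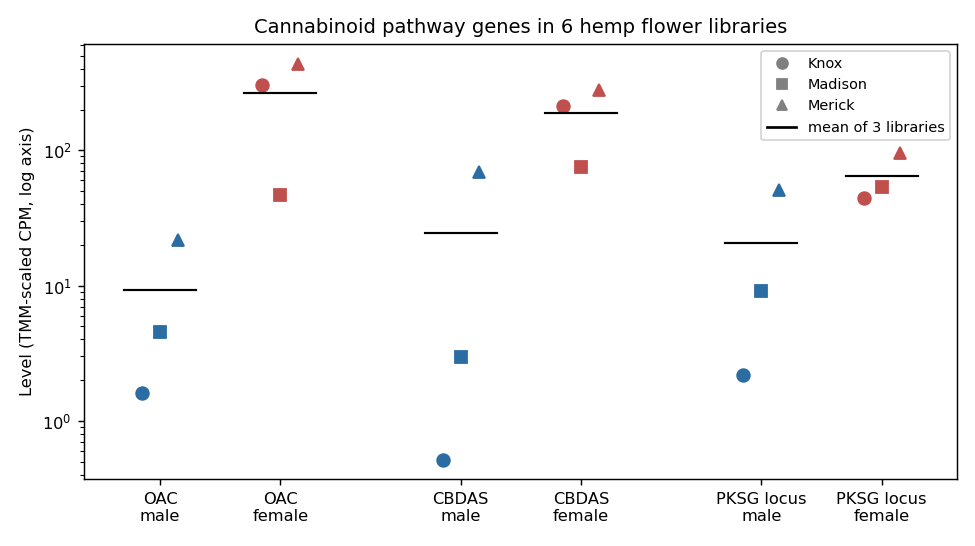
Level of OAC, CBDAS and the PKSG locus in each library, in TMM-scaled CPM on a log axis, males left of females for each gene; marker shapes give the location and lines the mean of 3 libraries. OAC has the widest gap between the sexes, at 2.18-fold between the nearest libraries, while the Merick male reaches 69.5 CPM for CBDAS, close to the 75.7 CPM of the Madison female.

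Non-overlap in this direction held for OAC and CBDAS, 2 of the 3 tested members, and for 19.8% of all tested genes. Within each location the male was below the female for all 3 tested members, as for 30.4% of all tested genes. For OAC, log2 levels of male and female differed by -7.19 (male minus female) in Knox, by -3.24 in Madison and by -4.31 in Merick. For CBDAS the difference was -7.72, -4.47 and -1.99, and for the PKSG locus -4.05, -2.50 and -0.92 in the same order. The Knox difference was the farthest from 0 for each of the 3 genes. With 1 library per sex and location, a difference between locations cannot be told apart from the spread between libraries.

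The 3 members shared 1 order among males, Merick over Madison over Knox, which 23.4% of tested genes also had. Without the Merick male, edgeR called each of the 3 lower in males, in a fit that called 18.8% of 19812 genes lower. The log2 fold changes there were -6.43 for OAC (SE 1.25, adjusted p = 0.012), -6.78 for CBDAS (SE 1.10, adjusted p = 0.0068) and -3.52 for the PKSG locus (SE 0.75, adjusted p = 0.016). Dropping the male with the highest levels enlarges these differences by construction. The Merick male stood at 8.20% of the female mean for OAC, 36.7% for CBDAS and 78.0% for the PKSG locus, so its distance from the females shrank in that order. It was 7.04 times the mean of the other males for OAC, 40.2 times for CBDAS and 8.92 times for the PKSG locus.

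Among females, Merick was highest for each of the 3 members, as for 37.9% of tested genes. The other libraries changed places: Madison was lowest for OAC and CBDAS, as for 30.5% of tested genes, and Knox was lowest for the PKSG locus. The highest female was 9.28 times the lowest for OAC, 3.67 times for CBDAS and 2.17 times for the PKSG locus. Males spread more for CBDAS, at 135-fold, than for the PKSG locus, at 23.0-fold, or OAC, at 13.5-fold.

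Set beside all tested genes, the members varied widely within a sex. The SD of log2(CPM + 0.5) over the 3 males was 3.14 for CBDAS, above that of 99.5% of tested genes. It was 2.13 for the PKSG locus and 1.72 for OAC, above 96.9% and 94.1%. Over the 3 females OAC moved from the smallest to the largest SD of the 3 members, with CBDAS again above the PKSG locus. OAC had an SD of 1.72, above 97.5% of tested genes, CBDAS 0.99, above 90.8%, and the PKSG locus 0.58, above 75.0%.

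**Figure D2:**
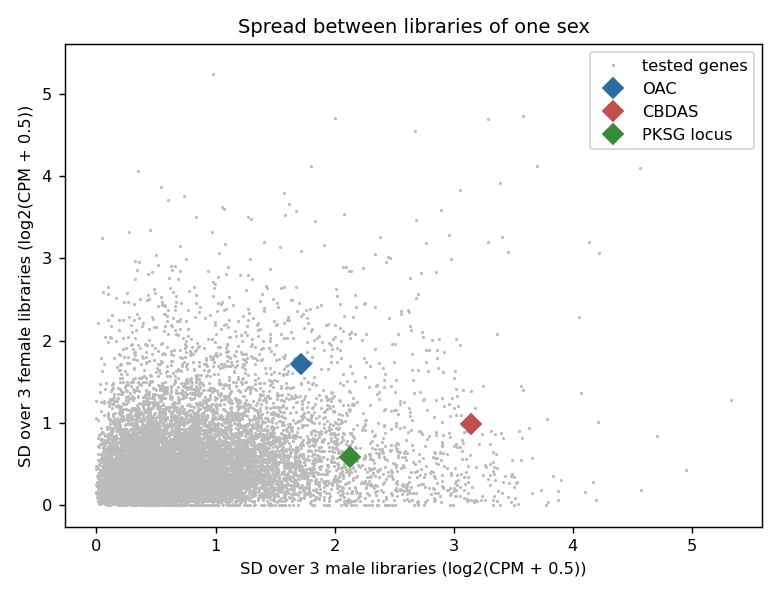
SD of log2(CPM + 0.5) over the 3 male libraries (horizontal) against the 3 female libraries (vertical), 1 grey point for each of 19276 tested genes and diamonds for the members. CBDAS lies far to the right, at 3.14 in males and 0.99 in females, while OAC has the same SD of 1.72 in either sex.

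The abundance rank of a gene among all rows of a library, by count and not corrected for transcript length, moved with these levels. OAC ranked 16053, 14044 and 8515 in the Knox, Madison and Merick males, against 402, 4443 and 314 in the females of those locations. CBDAS ranked 17961, 15022 and 2805 in these males, against 629, 2502 and 527 in these females. The PKSG locus ranked 15428, 12035 and 4150 in males, against 4651, 3796 and 1956 in females. In the Merick female, OAC had more counts than 98.5% of the genes detected there, and in the Knox male CBDAS had more than 17.9%.

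Ratios of one member to another within a library need no scaling between libraries, and the unknown transcript lengths cancel when the sexes are compared. Whether the PKSG locus supplies the substrate of OAC was not tested. The ratio of 2 genes' counts says nothing by itself about which transcript is more abundant. Of the 3 ratios, the pair that set OAC or CBDAS against the PKSG locus were lower in every male than in every female, and the ratio of CBDAS to OAC was not ordered by sex.

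OAC counts per PKSG locus count were 0.73, 0.50 and 0.43 in the Knox, Madison and Merick males, against 6.95, 0.87 and 4.55 in the females of those locations. The males lay close together and the females did not: the mean log2 ratio was -0.89 ± 0.40 in males and 1.59 ± 1.58 in females (SD, n = 3 each). The Madison female was near the males, and its interval of 0.82 to 0.93 (95%, exact binomial) overlapped that of the Knox male, 0.52 to 1.02. The Merick male, highest of the males in the level of each gene, was lowest in this ratio. Its interval of 0.40 to 0.46 overlapped that of the Madison male, 0.41 to 0.60, so their order is uncertain.

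CBDAS counts per PKSG locus count were 0.24, 0.32 and 1.38 in the Knox, Madison and Merick males, against 4.86, 1.40 and 2.90 in the females. The Merick male and the Madison female were again nearly level, with intervals of 1.31 to 1.45 and 1.32 to 1.49. The mean log2 ratio was -1.08 ± 1.35 in males and 1.43 ± 0.90 in females (SD, n = 3 each).

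For both ratios to the PKSG locus the exact two-sided permutation p was 0.1, the smallest that 3 against 3 allows, and 0.15 after Benjamini-Hochberg adjustment over the 3 ratios. The log2 difference, male minus female, was -2.49 for OAC to PKSG locus and -2.51 for CBDAS to PKSG locus, and each was lower in the male in 3 of 3 locations. Among all 19275 other tested genes, 0.565% (109 genes) had a ratio to the PKSG locus that was lower in every male than in every female, and OAC and CBDAS were among them. The PKSG locus itself had a lower mean level in males, which raises the ratio of an unchanged gene there and keeps this share small. In level alone, 19.8% of tested genes had every male below every female. The ratios share their denominator, so OAC and CBDAS are not separate observations.

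CBDAS counts per OAC count were 0.32, 0.65 and 3.22 in the Knox, Madison and Merick males, against 0.70, 1.61 and 0.64 in the females. Males held the highest and the lowest of the 6 values. The log2 difference of -0.02, male minus female, was far inside the SD of 1.69 in males and 0.74 in females (exact permutation p = 1.0). The Merick male had the most CBDAS per OAC of the 6 libraries, while the Madison male and the Merick female were nearly level.

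**Figure D3:**
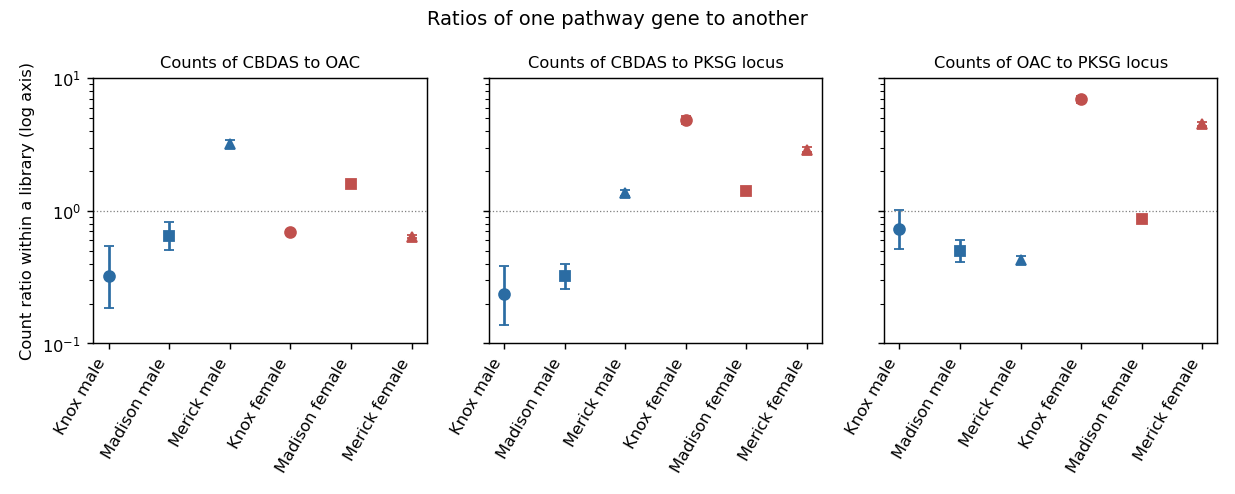
Count ratio of one pathway gene to another in each library on a log axis, males left and females right, with exact binomial 95% intervals as bars and a dotted line at 1. The ratio of OAC to the PKSG locus stays between 0.43 and 0.73 in males and runs from 0.87 to 6.95 in females.

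The CBDAS2 locus was almost silent. It had 0, 0 and 10 counts in the Knox, Madison and Merick males, against 0, 0 and 16 in the females of the same locations, so counts came from Merick in either sex and from no other location. These were 0.20 CPM (95% Poisson interval 0.10 to 0.37) in the Merick male and 0.44 CPM (0.25 to 0.72) in the Merick female. For the counts of 0, the upper limits of the same 95% interval were 0.095 and 0.0995 CPM in the Knox and Madison males. In the Knox and Madison females they were 0.128 and 0.0995 CPM. The ratio of the Merick male to the Merick female, in CPM, was 0.45 with an interval of 0.18 to 1.07 that holds 1. In the Merick male there were 346 CBDAS counts per count of this locus (188 to 723), and in the Merick female 630 (388 to 1103). Of 24265 genes with any count, 40 (0.165%) had counts in both Merick libraries and 0 elsewhere. Of these, 2 (0.00824%) had at least 10 in each, this locus and LOC115708817. The CBDAS2 locus was picked out after its values were seen, and the cut of 10 is its own count in the Merick male. It is therefore in both sets by construction, and the shares do not measure how unusual it is. How many reads near-identical copies of the locus drew or shared was not tested.

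The other named genes of plant specialised metabolism in the gene table were CHS (LOC115724170), the chalcone synthase that opens flavonoid synthesis, and TPS1 (LOC115716064), a terpene synthase. Neither was among the calls over 6 libraries, so of the 5 tested genes with a name, OAC alone passed there. CHS averaged 331 ± 230 CPM in males and 1024 ± 811 CPM in females, and TPS1 17.8 ± 25.4 and 33.7 ± 27.8 CPM (SD, n = 3 each; adjusted p = 0.16 and 0.68 by edgeR). CHS was called lower in males without the Merick male (adjusted p = 0.047 by edgeR) and with location as a block (adjusted p = 0.049). With the block OAC narrowly missed the threshold (adjusted p = 0.053 by edgeR). The log2 fold change in that fit was -4.96 for OAC and -1.58 for CHS.

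Profiles across the libraries were compared next, to name genes that follow each member. The distance of 2 genes is the root mean square difference of their log2(CPM + 0.5) values after each gene's mean over 6 libraries is taken off, so it measures shape and amplitude and ignores level. Among 17761 genes with a mean of at least 1 CPM, the median distance to OAC was 2.87, to CBDAS 3.08 and to the PKSG locus 1.86. These distances are descriptions over 6 libraries that share the contrast of sex and the Merick male.

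OAC and CBDAS were near each other, at a distance of 0.94. CBDAS was the 22nd nearest of 17760 genes to OAC, and OAC the 27th nearest to CBDAS. The PKSG locus was 291st from OAC, at 1.53, and 158th from CBDAS, at 1.39. Counted from the PKSG locus, whose own profile had many closer neighbours, CBDAS came 3654th and OAC 5028th, while CHS came 914th, at 0.87.

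The gene nearest to OAC was LOC115695866, at a distance of 0.43, and no other gene was within 0.5. It stood at 0.41, 1.19 and 6.50 CPM in the Knox, Madison and Merick males, against 66.4, 7.98 and 107 CPM in the females, with the low Madison female that OAC also had. LOC115700917, LOC115723437, LOC115713215 and LOC115697695 followed at 0.57, 0.59, 0.73 and 0.77. LOC115723437 stood at 0.52, 0.73 and 2.69 CPM in males, against 61.1, 14.8 and 71.4 CPM in females (log2 fold change -5.21 with an SE of 0.95, edgeR's adjusted p = 0.021). LOC115713215, which the table puts on X, stood at 1.29, 1.62 and 11.4 CPM in males, against 61.0, 15.0 and 93.2 CPM in females (adjusted p = 0.071). Of the 10 nearest genes, 9 had every male below every female and 3 were called lower, LOC115723437, LOC115700696 and LOC115725218. Nearness to OAC largely sets both counts.

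The nearest genes to CBDAS were LOC115716605, LOC115709850, LOC115722765, LOC115700917 and LOC115698170, at distances of 0.34 to 0.45. LOC115698170 was the most abundant of them, at 41.5, 104 and 1730 CPM in the Knox, Madison and Merick males, against 3121, 2173 and 6742 CPM in the females. LOC115709850 stood at 2.32, 8.69 and 139 CPM in males, against 475, 330 and 788 CPM in females. Like CBDAS itself, none of the 10 nearest was called over 6 libraries by edgeR, and in each of these 5 the Merick male was far above the other males. LOC115700917 and LOC115722765 were among the 10 nearest of OAC as well. LOC115722765 stood at 0.10, 2.81 and 36.4 CPM in males, against 215, 44.7 and 214 CPM in females.

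The PKSG locus had 131 genes within 0.5, and the nearest were LOC115720084, LOC115699589, LOC115706424, LOC115698612 and LOC115722916, at 0.20 to 0.27. LOC115720084 stood at 6.45, 24.4 and 115 CPM in the Knox, Madison and Merick males, against 96.9, 103 and 173 CPM in the females, so the Merick male lay among the females as it did for the PKSG locus. No gene was shared with the 10 nearest of OAC or of CBDAS. Of the genes named as nearest, all but LOC115723437 are in the gene table, listed as protein coding with no common name, so no function is given.

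**Figure D4:**
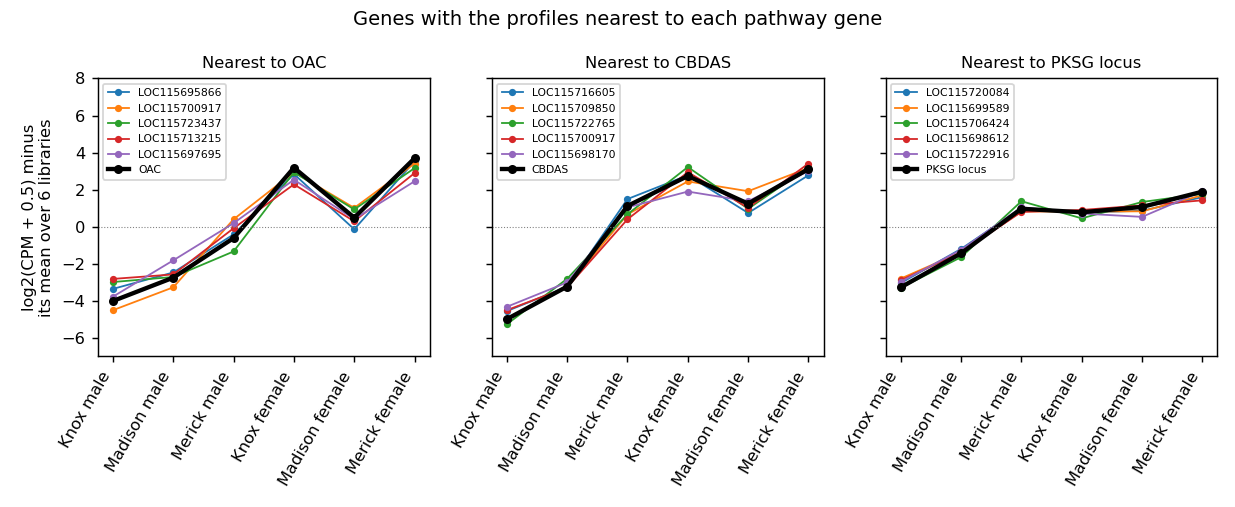
log2(CPM + 0.5) minus each gene's mean over 6 libraries, for each member (thick black) and the 5 genes nearest to it, males left and females right; lines join libraries only to guide the eye. The OAC group drops at the Madison female, and the PKSG group has the Merick male level with the females.

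The lists depend on the measure. By Pearson correlation, which ignores amplitude, 2 of the 10 genes were shared for OAC, 0 for CBDAS and 2 for the PKSG locus. With 1 library left out in turn, 4 to 7 of the 10 were shared for OAC, 7 to 9 for CBDAS and 2 to 9 for the PKSG locus, where leaving out the Knox female kept the most.

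Neighbouring genes in the order of the Pink pepper assembly were examined for the same contrast. Over all 19276 tested genes, 4.75% were called lower and 12.6% higher in males. Whether the counts of calls around any member differ from these shares was not tested. Of the 20 genes around OAC, 17 were tested, 2 were called lower and 2 higher in males. The gene next to OAC on its lower-numbered side, LOC115723415, was lower in males. It stood at 9.73, 15.8 and 27.7 CPM in the Knox, Madison and Merick males, against 127, 104 and 193 CPM in the females (log2 fold change -2.99 with an SE of 0.48, edgeR's adjusted p = 0.017). Its females lay closer together than those of OAC. LOC115723431, the sixth on the other side, was the second lower call (log2 fold change -1.03, adjusted p = 0.045), and LOC115723397 and LOC115723400 were the higher calls (2.95 and 1.26, adjusted p = 0.021 and 0.032). The nearest others, LOC115723425, LOC115723434, LOC115723422 and LOC115723417, were not called (adjusted p 0.17 to 0.67), and LOC115723422 turned from 0.77 to -0.41 without the Knox male.

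Around the PKSG locus, 13 of 20 genes were tested, 1 was called lower and 1 higher. The lower call was LOC115700696, the second gene on the lower-numbered side and also among the 10 nearest to OAC in profile. It stood at 1.94, 7.69 and 16.0 CPM in the Knox, Madison and Merick males, against 165, 27.8 and 130 CPM in the females (log2 fold change -3.65 with an SE of 0.97, edgeR's adjusted p = 0.048). LOC115699292, the second on the other side, stood at 0.26, 0.16 and 4.61 CPM in males, against 29.2, 10.4 and 24.9 CPM in females, and was not called (log2 fold change -3.67, adjusted p = 0.10). LOC115699621 and LOC115699190 were not called either (adjusted p = 0.071 and 0.47). The higher call, LOC115699354, had a log2 fold change of 2.42 (adjusted p = 0.030).

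Around CBDAS, 8 of 20 genes were tested, none was called lower and 2 were higher in males. LOC115696994, the tenth gene on the higher-numbered side, stood at 530, 187 and 15.0 CPM in the Knox, Madison and Merick males, against 0.24, 0.03 and 0.22 CPM in the females (log2 fold change 10.5, adjusted p = 0.017 by edgeR). LOC115696488, the fifth, stood at 78.4, 35.6 and 2.33 CPM in males, against 0, 0 and 0.14 CPM in females (adjusted p = 0.023). In both, the order among males was Knox over Madison over Merick, the reverse of CBDAS. The share of all tested genes with that order was not counted. Of the males, Merick was also lowest for the higher calls around the other members, LOC115723397, LOC115723400 and LOC115699354. LOC115696988 and LOC115697944, next to CBDAS, were not called (adjusted p = 0.14 and 0.81), and LOC115697944 turned from -0.14 to 0.14 without the Knox female. The gene table has 12 genes between CBDAS and the CBDAS2 locus, of which 6 are in the count tables and 1 was tested. Around the CBDAS2 locus 2 of 20 genes were tested and neither was called.

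**Figure D5:**
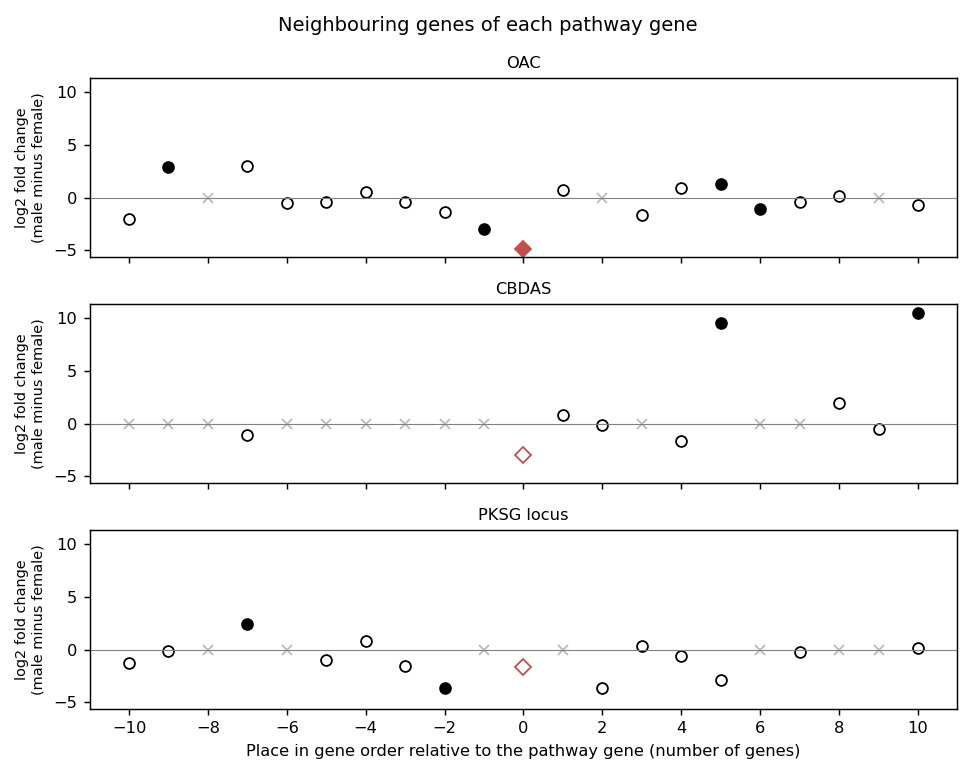
log2 fold change, male minus female, of the 10 genes on each side of OAC, CBDAS and the PKSG locus, by place in gene order; diamonds mark the members, filled symbols genes with an adjusted p under 0.05 by edgeR, and crosses at 0 genes that were not tested. Lower and higher calls stand side by side around OAC and the PKSG locus, and the calls near CBDAS are 2 genes higher in males.

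Each of the 8 neighbours called here, and each of the 3 called genes among the nearest 10 of OAC (LOC115700696 is in both sets), kept its call without the Merick male and lost it without the Madison male or any 1 female (edgeR's adjusted p up to 0.16). Without the Knox male the call was kept by LOC115723415 and LOC115696994. With location as a block, 3 of these 10 genes lost the call, LOC115723431 (adjusted p = 0.075 by edgeR), LOC115700696 (0.089) and LOC115696488 (0.067). Of the 22 other genes named from the profiles and neighbourhoods, which were not called over 6 libraries, 17 were called without the Merick male. That fit called 8311 of 19812 genes, 4592 higher and 3719 lower in males. For genes picked because their profile is near a member's, dropping the Merick male enlarges the difference by construction. Among the 17 were LOC115699292 (adjusted p = 0.0021 by edgeR), LOC115709850 (0.0036), LOC115723434 (0.0045), LOC115723417 (0.0048) and LOC115698170 (0.0048). LOC115713215 was called without the Merick male (0.0083) and also with the block (0.041).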

How the data were processed

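For each library the authors deposited a table of raw counts, with 29777 gene rows and 5 closing rows for unassigned reads, whose names are those htseq-count writes, per the file headers and row names. No source used here names the aligner, build, annotation or strand setting, so overlapping and antisense genes are uncertain. Closing rows (14.9% to 18.1% of listed reads) stayed out. RNA was column-purified with DNase treatment and sequenced on Illumina libraries, per the labels' protocols. The members, lists and tests were chosen with earlier results of these data known.

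Male was compared with female in edgeR 4.0.16 (R 4.3.3): filterByExpr, TMM, robust dispersions, quasi-likelihood test, Benjamini-Hochberg over all tested genes, threshold 0.05, 4 residual degrees of freedom. The SE is the fold change over the square root of F. Ratios used log2 of counts plus 0.5 and exact permutation. Alternatives were other scalings, no filter, DESeq2 1.42.0, limma-voom (limma 3.58.1), location as a block and leaving out libraries. On counts simulated for this comparison over 19276 genes, edgeR called 9 of 50 genes changed 4-fold and 42 of 50 changed 16-fold. The changed genes were drawn at random, and no simulated library stood apart across genes as the Merick male did. These shares therefore need not hold for the members, which varied more within a sex than most tested genes. Named genes were the members, the nearest 5 in profile to each, tested neighbours within 3 places on each side and other called neighbours. Protein relatives, promoter motifs and per-length ranks were not analysed here. The gene table held 23050 of 29283 LOC symbols. Its build may differ, so no positions are printed.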

Additional observations from a re-analysis of the deposited data

Results flagged for a closer look

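The ratio of CBDAS to OAC counts differed between males and females with opposite signs by location: the log2 ratio, male minus female, was -1.09 in Knox and -1.31 in Madison, but 2.34 in Merick. With 1 library per sex and location, this difference was not tested.

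The CBDAS2 locus (LOC115696884) was outside the main comparison of the sexes because it failed the filter on low counts. It had 10 counts in the Merick male and 16 in the Merick female, above the floor of 3 counts set for a library with none.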

How the results depend on the processing

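Over 6 libraries 3339 genes were called, 131 to 8311 with 1 library left out, 2123 with the replicate block of location and 6619 with DESeq2. The log2 fold change of OAC stayed negative under each alternative run, but the call was lost with upper-quartile scaling (-4.91), no filter (-4.74), limma-voom (-4.98) and the replicate block (-4.96). With 1 library left out it was -6.43 to -4.29 for OAC, -6.78 to -2.39 for CBDAS and -3.52 to -1.12 for the PKSG locus. CBDAS and the PKSG locus passed the threshold only without the Merick male. The replicate block moved CBDAS from -2.96 to -4.89 and the PKSG locus from -1.65 to -2.58 (adjusted p = 0.10 and 0.088 by edgeR), and limma-voom gave -4.88 and -2.46 (adjusted p = 0.071 and 0.12). The cause was not tested. Location was not taken to pair the libraries. By deviations from the sex means, the Merick and Knox females each correlated best with the male of their own location (0.17 and 0.12). The Madison female correlated best with the Knox male (0.14), and at -0.00078 with the Madison male. Whether libraries of the same location share a signal was not tested. Within location the exact sign-flip permutation p was 0.25 for either ratio to the PKSG locus, the smallest that 3 locations allow, and 1.0 for CBDAS to OAC.

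With 1 library left out, the log2 difference was -3.39 to -1.89 for OAC to PKSG locus, -3.28 to -2.02 for CBDAS to PKSG locus and -0.96 to 0.69 for CBDAS to OAC; adding 5 counts gave -2.47, -2.42 and 0.05. Over the named genes that are no members, 296 values kept direction and side of the threshold, 59 fell back from the threshold, 25 came to pass it and 2 reversed: LOC115723422 (-0.41 without the Knox male, and up to 1.56 with another library left out) and LOC115697944 (0.14 without the Knox female, and down to -0.50). With profiles centred within each sex, an alternative chosen after seeing the data, 4, 6 and 5 of the 10 genes nearest to OAC, CBDAS and the PKSG locus were shared. With no filter the CBDAS2 locus had a log2 fold change of -0.99 (adjusted p = 0.77 by edgeR). CBDAS had 20 counts in the Knox male, where its ratio to OAC has an interval of 0.18 to 0.54. Protein relatives and ranks per coding length were not run.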
